A study of Mus musculus with 6 samples.

Results

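Genes of glycolysis and genes induced by low oxygen were examined in mouse islets of Langerhans, the endocrine part of the pancreas, cultured with or without CMPF, a circulating furan fatty acid metabolite. The genes were chosen by symbol from a list of 33, and 31 of them, among the 18193 genes measured, had a probe set that names a single gene. These 31 were 16 genes of glucose entry, glycolysis and lactate export and 15 hypoxia-induced genes, with Hif1a counted among the hypoxia-induced genes. Gpi1 and Eno1, glycolytic enzymes, were not analysed here. Per gene the brightest such probe set was used, and 29 of the 31 lay above the median level of all genes. The CMPF group held 3 arrays of islets exposed to 200 uM CMPF for 24 hours, and the vehicle group held 3 arrays of islets given 0.1% ethanol for the same time. All islets came from male CD1 mice aged 8 weeks and had rested overnight in culture before treatment, and the labels do not say how many animals each array stands for. Replicates carry the numbers 1 to 3 in both groups, and "pair" below means the CMPF and the vehicle array of 1 number. The labels do not say what the arrays of a number share. All values are on the log2 scale on which they were deposited, and a difference of 1 is a doubling.

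Glycolysis splits glucose into pyruvate, and lactate dehydrogenase then turns pyruvate into lactate where mitochondria do not take it up. Low oxygen raises the capacity of this route through the transcription factor HIF-1. Its alpha subunit is marked for destruction by prolyl hydroxylases of the Egln family while oxygen is present, and is spared when oxygen is short. The factor then binds a short core sequence near its target genes with its partner Arnt. Adult beta cells are known for low lactate dehydrogenase and low monocarboxylate transport, which keeps glucose carbon on the way to the mitochondria. Isolated islets have lost their blood flow, so oxygen reaches their interior by diffusion.

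Levels of the 31 genes did not separate the CMPF arrays from the vehicle arrays. They differed between the replicate numbers. Most were lowest on the number 1 arrays and highest on the number 3 arrays of both groups. With limma, 0 of the 31 genes passed the threshold of 0.05 for CMPF against vehicle after adjustment over all genes, where 0% of all genes passed. None reached an unadjusted p under 0.05 either, where 1.13% of all genes did. With the replicate number as a block the counts were 0 after adjustment (0% of all genes) and 0 before it (3.8% of all genes). The groups overlapped for all 31 genes, while 4.52% of all genes had no overlap. CMPF arrays were higher in all 3 pairs for 0 of the 31 genes (11.8% of all genes) and lower in all 3 pairs for 0 (11.1% of all genes).

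The difference between CMPF and vehicle ran from -0.16 to 0.22 over the 31 genes, with 10 positive and 21 negative values. It lay within 0.2 of 0 for 30 of the 31 genes, all but Car9, and for 92% of all genes. Its median was -0.03 over the 31 genes and 0.0018 over all genes. For the glycolysis genes the median was -0.05, and for the hypoxia-induced genes it was -0.02. These signs were not stable. With array weights 26 of the 31 differences were positive and the median was 0.085, without CMPF 1 29 were positive (median 0.24), without vehicle 3 27 were positive (median 0.12), and without both number 1 arrays 26 were. Without CMPF 3 only 3 were positive (median -0.29), and without vehicle 1 also 3 (median -0.21). Without both number 3 arrays 5 were. In size the differences were like those of other genes, with a median of 0.0808 over the 31 genes and 0.0673 over all genes. The standard errors were not alike: their median was 0.300 over the 31 genes and 0.116 over all genes. With the block these medians were 0.107 and 0.0877.

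**Figure D1:**
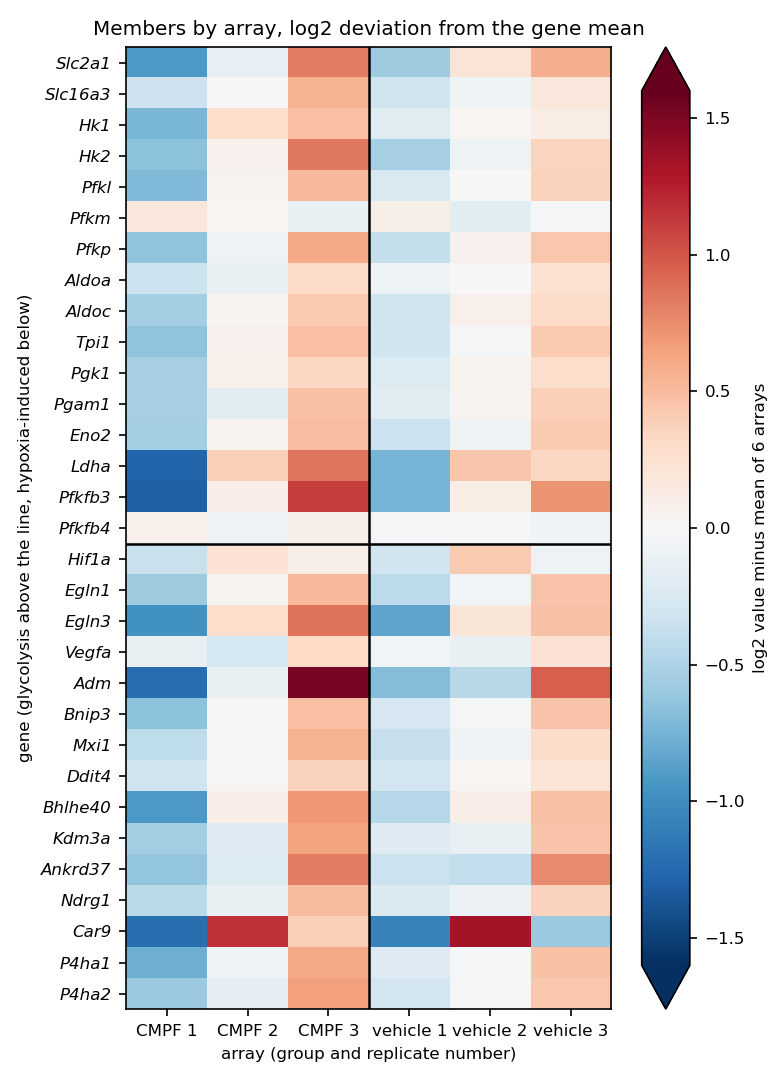
Log2 value minus the gene's mean over the 6 arrays, for 31 genes (rows; glycolysis above the line, hypoxia-induced below) and 6 arrays (columns; CMPF 1 to 3, then vehicle 1 to 3). Blue is below the gene's mean and red above it; the number 1 columns are mostly blue and the number 3 columns mostly red in both groups, and Car9 and Hif1a are highest on the number 2 arrays.

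Set against the replicate numbers, the 31 genes differed far more than with treatment. Number means are averages of the CMPF and the vehicle array of a number. The range between the 3 number means had a median of 0.926 over the 31 genes and 0.210 over all genes. It exceeded the size of the treatment difference for 31 of the 31 genes, where 87.5% of all genes did so. For 28 of the 31 genes the range lay above the 90th percentile of all genes. The replicate number took a median of 92.5% of a gene's sum of squares over the 6 arrays, against 59.7% over all genes. Treatment took a median of 0.963% over the 31 genes and 7.58% over all genes.

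Limma's F test of the replicate number called 19 of the 31 genes after adjustment over all genes, where 2.64% of all genes were called. With all arrays in, this test compares all 3 numbers, and no p was computed for number 3 minus number 1 alone. Genes described below as called, and each adjusted p beside a number 3 excess, refer to this F test. At an unadjusted p under 0.05 it passed 29 of the 31 genes and 21.8% of all genes. The called genes were 8 of the 16 glycolysis genes and 11 of the 15 hypoxia-induced genes. Number 3 was highest and number 1 lowest in both groups for 24 of the 31 genes, where 4.16% of all genes showed that order. The opposite order, with number 1 highest and number 3 lowest, was found for 0 of the 31 genes and 3.42% of all genes. The 3 numbers stood in the same order in both groups for 27 of the 31 genes and 29.6% of all genes. For 16 of the 31 genes the F test passed and number 3 was highest and number 1 lowest in both groups, against 0.434% of all genes. The other 3 called genes were Ldha, Ankrd37 and Car9. These counts depended on which arrays entered. Without CMPF 1 the F test called 4 of the 31 genes (1.24% of all genes), and without CMPF 3 it called 11 (3.23%). Without vehicle 1 it called 19 (2.42%) and without vehicle 3 it called 24 (5.14%). Without CMPF 2 or without vehicle 2 it called 0 of them and 0% of all genes (smallest adjusted p = 0.0566 and 0.0790), though 29 of the 31 had an unadjusted p under 0.05 each time (13.4% and 15.5% of all genes). Leaving out both number 1 arrays left 4 of the 31 genes called (2.33% of all genes), and leaving out both number 3 arrays left 9 (4.51%). Without both number 2 arrays 0 were called (0%), with 29 at an unadjusted p under 0.05 (11.6% of all genes). That fit sets number 3 against number 1 alone, on 4 arrays, and its smallest F test adjusted p over all genes was 0.104.

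**Figure D2:**
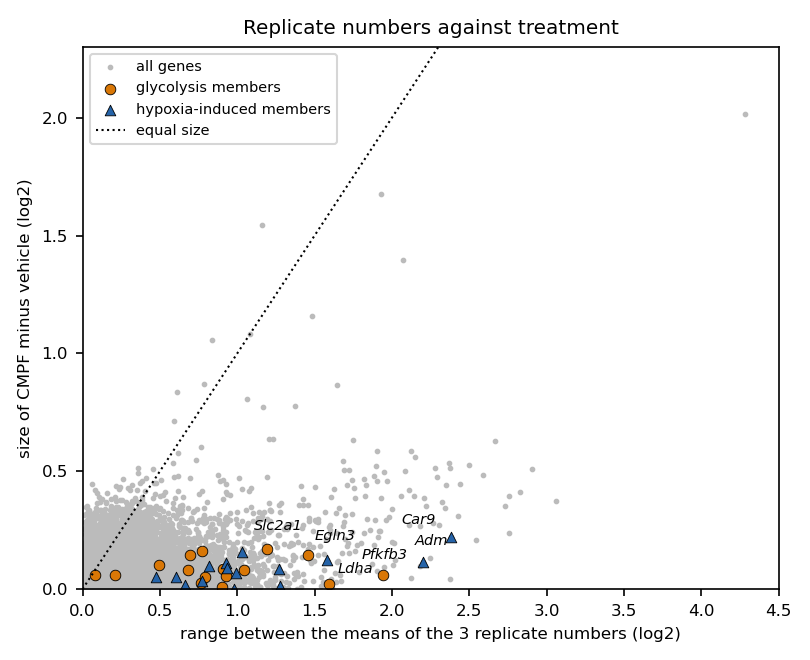
Size of CMPF minus vehicle (vertical, log2) against the range between the means of the 3 replicate numbers (horizontal, log2) for 18193 genes (grey), with glycolysis genes as orange circles and hypoxia-induced genes as blue triangles. The 31 genes lie to the right of the dotted line of equal size, with ranges up to 2.38 and differences of at most 0.22 in size.

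Of the transporters, Slc2a1, which encodes the GLUT1 glucose transporter, read 9.68, 10.46 and 11.43 on CMPF arrays 1 to 3, and 10.02, 10.80 and 11.18 on vehicle arrays 1 to 3. The vehicle values lay within the range of the CMPF values, and the number 1 arrays were the lowest of each group. Treatment differed by -0.15 (SE 0.459, and 0.134 with the block). Number 3 exceeded number 1 by 1.46 (SE 0.165), a ratio of 2.74, with an F test adjusted p of 0.0260. Slc16a3, the MCT4 transporter that exports lactate, is dim on this array. It read 4.69, 5.01 and 5.58 with CMPF and 4.70, 4.95 and 5.19 with vehicle. Treatment differed by 0.15 (SE 0.233), and the F test of the replicate number missed the threshold (adjusted p = 0.0771).

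Hexokinases, which trap glucose in the cell by phosphorylation, were ordered alike by number. Hk2, the isoform known for induction by hypoxia, read 5.82, 6.54 and 7.32 with CMPF and 5.95, 6.40 and 6.83 with vehicle. In each pair the 2 arrays lay closer together than the arrays of different numbers in the CMPF group. This did not hold against the vehicle group, as the gap of 0.49 in pair 3 exceeded that between vehicle 2 and vehicle 3. The treatment difference of 0.17 (SE 0.380) was the largest positive one among the glycolysis genes, and number 3 exceeded number 1 by 1.19 (SE 0.153; F test adjusted p = 0.0358). Hk1, the more widely expressed isoform, read 6.17, 7.19 and 7.39 with CMPF and 6.71, 6.94 and 7.02 with vehicle, and missed the threshold (F test adjusted p = 0.170).

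Of the 3 phosphofructokinase genes, which encode the committed step of glycolysis, Pfkp and Pfkl shared the pattern and Pfkm did not. Pfkp, the platelet isoform, read 9.65, 10.22 and 10.91 with CMPF and 9.91, 10.37 and 10.74 with vehicle. Its number 3 excess was 1.04 (SE 0.128; F test adjusted p = 0.0314), beside a treatment difference of -0.08 (SE 0.331). Pfkl, the liver isoform, had a number 3 excess of 0.91 (SE 0.160) and missed the threshold of the F test (adjusted p = 0.0754). Pfkm, the muscle isoform, read 8.48, 8.32 and 8.17 with CMPF and 8.39, 8.13 and 8.28 with vehicle. Here the number 1 arrays were the highest, and number 3 minus number 1 was -0.21 (SE 0.110; adjusted p = 0.399).

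Pfkfb3 and Pfkfb4 make fructose 2,6-bisphosphate, the activator of phosphofructokinase. Pfkfb3 had the widest number 3 excess of the glycolysis genes. It read 5.91, 7.33 and 8.33 with CMPF and 6.48, 7.34 and 7.94 with vehicle. Number 3 exceeded number 1 by 1.94 (SE 0.213), a ratio of 3.84 (F test adjusted p = 0.0241), while treatment differed by -0.06 (SE 0.612). Pfkfb4 was below the median level of all genes and stayed between 5.72 and 5.90 on all 6 arrays, so the replicate numbers did not separate it (adjusted p = 0.826).

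Among the enzymes from aldolase to enolase, Pgam1, phosphoglycerate mutase, had the lowest treatment difference of the 31 genes. It read 10.92, 11.27 and 11.91 with CMPF and 11.27, 11.48 and 11.82 with vehicle, a difference of -0.16 (SE 0.257). CMPF was lower in pairs 1 and 2 and higher in pair 3. Number 3 exceeded number 1 by 0.77 (SE 0.129; F test adjusted p = 0.0665). Among the other enzymes of this stretch the F test called Tpi1, triose phosphate isomerase, and Aldoc, an aldolase. It also called Eno2, an enolase best known from neurons and endocrine cells. Their number 3 excesses were 0.93 (SE 0.131), 0.79 (SE 0.113) and 0.90 (SE 0.116). For Aldoa, the widely expressed aldolase, the excess was 0.50 (SE 0.112, F test adjusted p = 0.121). Pgk1, phosphoglycerate kinase, had an excess of 0.68 (SE 0.121; adjusted p = 0.0745).

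Ldha, the lactate dehydrogenase subunit kept low in adult beta cells, was separated mainly by the number 1 arrays. It read 9.45, 11.09 and 11.57 with CMPF and 9.98, 11.16 and 11.05 with vehicle. On these arrays of whole islets it was bright, with all values above 8.19, the upper quartile of the gene means. Both number 1 arrays lay more than a log2 unit below the other arrays of their group. Number 2 exceeded number 1 by 1.41 and number 3 by 1.59 (SE 0.230 each; F test adjusted p = 0.0378), whereas treatment differed by -0.02 (SE 0.556).

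**Figure D3:**
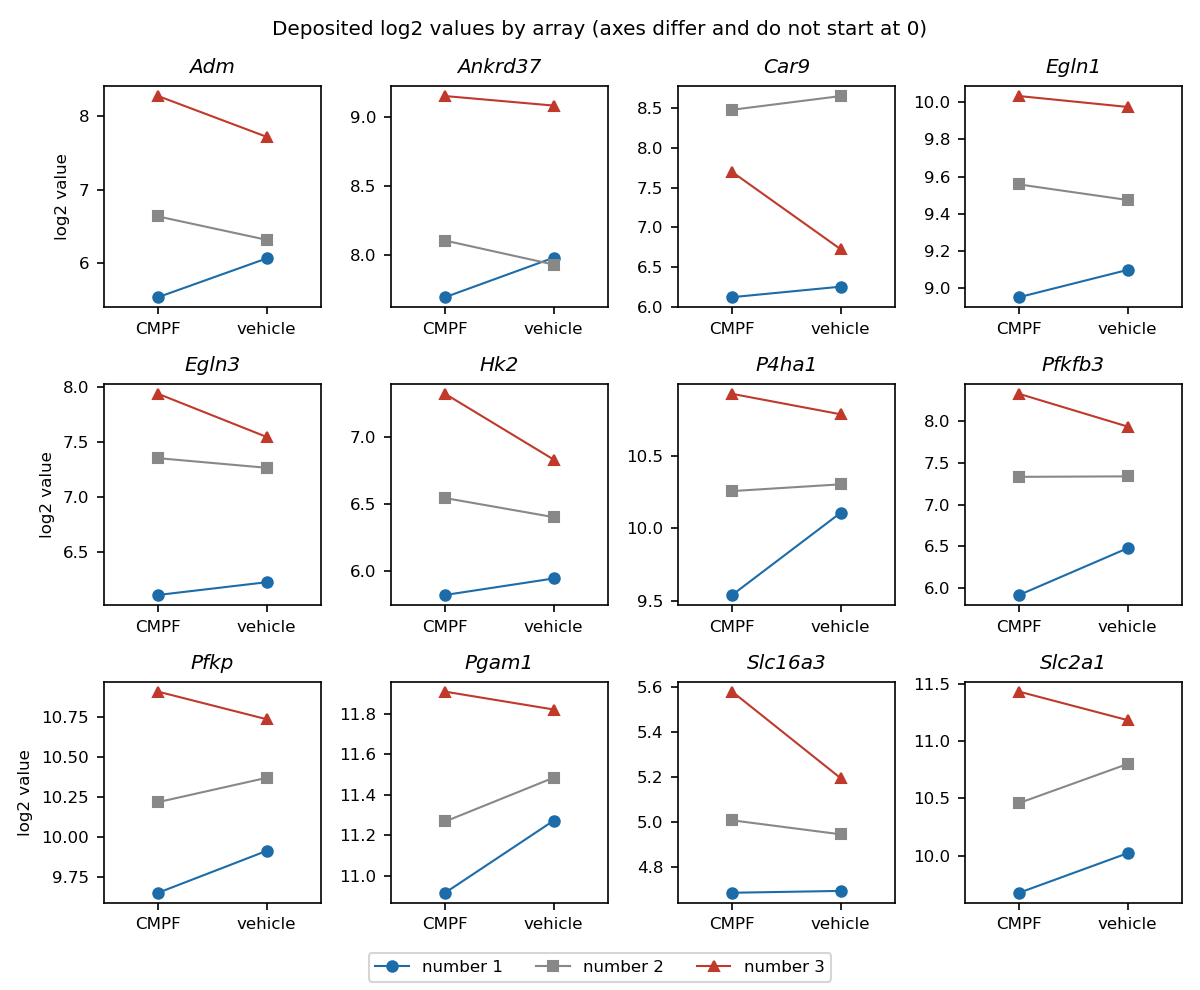
Deposited log2 values of 12 genes on each array, with CMPF on the left and vehicle on the right of each panel and a line joining the 2 arrays of a replicate number (blue circles number 1, grey squares number 2, red triangles number 3). Vertical axes differ between panels. The 3 lines stay apart in all panels but Ankrd37, where numbers 1 and 2 cross, and Car9 has its number 2 line on top.

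Among the genes of oxygen sensing, Hif1a, the alpha subunit of HIF-1, which is known to be controlled mostly at the protein level, was highest on the number 2 arrays. It read 10.31, 10.89 and 10.75 with CMPF and 10.34, 11.08 and 10.58 with vehicle. The F test missed the threshold (adjusted p = 0.0753), and treatment differed by -0.02 (SE 0.221). The hydroxylase genes Egln1 and Egln3, which are both enzymes acting on HIF-1 and targets of it, were among the most sharply separated by number. Egln1 read 8.95, 9.56 and 10.03 with CMPF and 9.10, 9.47 and 9.97 with vehicle. Its treatment difference was -0.0015 (SE 0.308, and 0.0848 with the block). The replicate number took 98.4% of its sum of squares, with a number 3 excess of 0.98 (SE 0.104, F test adjusted p = 0.0222). Egln3 read 6.11, 7.35 and 7.94 with CMPF and 6.22, 7.27 and 7.55 with vehicle. Number 3 exceeded number 1 by 1.58 (SE 0.137), a ratio of 2.99, with the smallest F test adjusted p of the 31 genes at 0.0135. The other Egln3 probe set (mean 6.62) had a smaller excess of 0.89. Its treatment difference was -0.02, against 0.12 on the probe set used.

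Of the secreted factors, Adm, the vasodilator peptide adrenomedullin, had the largest number 3 excess of the 31 genes. It read 5.53, 6.63 and 8.28 with CMPF and 6.06, 6.32 and 7.72 with vehicle. Number 3 exceeded number 1 by 2.20 (SE 0.247), a ratio of 4.59 (F test adjusted p = 0.0241). The treatment difference of 0.12 had SE 0.707 and an interval from -1.54 to 1.77 without the block. With the block its SE was 0.201 and its interval ran from -0.37 to 0.61. Vegfa, the growth factor for blood vessels that islets need for their capillaries, varied less. It ranged from 9.14 to 9.74 with CMPF and from 9.31 to 9.65 with vehicle, with number 2 lowest in both groups (F test adjusted p = 0.110). On the other Vegfa probe set, which was dimmer, the number means were 6.99, 7.08 and 7.51 for numbers 1 to 3. There CMPF was higher in all 3 pairs, by 0.25, 0.06 and 0.07.

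Car9, a carbonic anhydrase of the cell surface that regulates pH, was ordered differently. It read 6.12, 8.48 and 7.70 with CMPF and 6.25, 8.65 and 6.72 with vehicle. The number 2 arrays were the highest of each group, and number 2 exceeded number 1 by 2.38 (SE 0.277; F test adjusted p = 0.0283). Its treatment difference of 0.22 (SE 0.753) was the highest of the 31 genes. CMPF was 0.97 higher in pair 3, and CMPF minus vehicle was -0.13 in pair 1 and -0.17 in pair 2.

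Of the intracellular genes, Ankrd37, a direct HIF-1 target, read 7.70, 8.10 and 9.15 with CMPF and 7.98, 7.93 and 9.08 with vehicle. Here the number 3 arrays stood above all others, and number 3 exceeded number 1 by 1.27 (SE 0.132; F test adjusted p = 0.0179). Bhlhe40, a transcriptional repressor, had a number 3 excess of 1.27 (SE 0.167), Kdm3a, a histone demethylase, of 0.93 (SE 0.141), and Bnip3, a mitophagy receptor, of 0.93 (SE 0.132), all called. The F test also called Mxi1, a MYC antagonist (excess 0.82, SE 0.108), and Ndrg1, a stress-response gene (excess 0.77, SE 0.113). Ddit4, an inhibitor of mTORC1, had an excess of 0.61 (SE 0.099) and missed the threshold (adjusted p = 0.0647).

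P4ha1 and P4ha2 encode the catalytic subunits of collagen prolyl hydroxylase. P4ha1 read 9.54, 10.26 and 10.92 with CMPF and 10.11, 10.30 and 10.78 with vehicle. Its treatment difference was -0.16 (SE 0.339), at -0.56 in pair 1 and 0.14 in pair 3. Number 3 exceeded number 1 by 1.03 (SE 0.173; F test adjusted p = 0.0687). For P4ha2 the excess was 0.99 (SE 0.140; adjusted p = 0.0436).

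Within the pairs the treatment difference took opposite signs. In pair 1 the CMPF array was lower for 29 of the 31 genes (51% of all genes), with a median difference of -0.27. Pair 2 had CMPF higher for 14 of the 31 (52.3% of all genes), with a median of -0.0057. In pair 3 the CMPF array was higher for 30 of the 31 (49.2% of all genes), with a median of 0.16. CMPF was lower in pair 1 and higher in pair 3 for 29 of the 31 genes, where 28.2% of all genes showed both signs. The exceptions were Pfkm and Pfkfb4. With 1 array per group and number, whether the pairs differ in their response cannot be tested. The CMPF arrays spread more widely: their range exceeded that of the vehicle arrays for 29 of the 31 genes (62.7% of all genes), with median ranges of 1.13 and 0.720. Hif1a and Car9 were the exceptions. For the 24 genes with number 3 highest and number 1 lowest in both groups, the wider CMPF range follows from the signs in pairs 1 and 3. It is no separate result there.

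**Figure D4:**
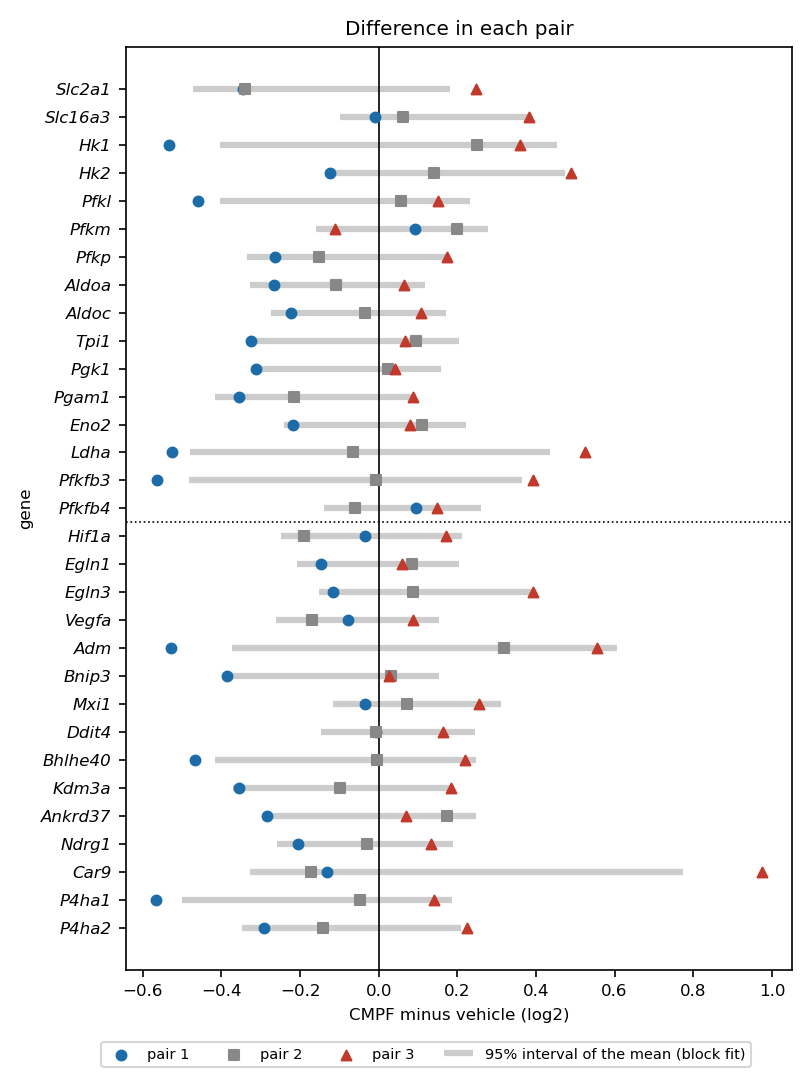
CMPF minus vehicle (log2) in pair 1 (blue circles), pair 2 (grey squares) and pair 3 (red triangles) for 31 genes, with the 95% interval of the mean difference from the fit with the block as a grey bar. Pair 1 lies left of 0 for 29 genes and pair 3 right of 0 for 30 genes; the grey bars of all 31 genes cross 0.

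Further genes of both pathways were set beside the 31. Of 50 other hypoxia genes 44 were measured, and of 37 other genes of glucose metabolism 33 were. For CMPF against vehicle 0 genes of either list passed. The F test of the replicate number called 11 of the 44 (25%) and 3 of the 33 (9.09%), against 2.64% of all genes. The order with number 3 highest and number 1 lowest in both groups was found for 19 of the 44 and 3 of the 33, against 4.16% of all genes. Ak4, a mitochondrial adenylate kinase induced by hypoxia, read 6.54, 8.08 and 9.22 with CMPF and 7.17, 8.10 and 8.98 with vehicle. Its number 3 excess of 2.25 (SE 0.201; F test adjusted p = 0.0150) was the largest of all 18193 genes. Hilpda, a lipid droplet protein induced by hypoxia, had an excess of 1.76 (SE 0.135; adjusted p = 0.0112), and Plod2, a collagen lysyl hydroxylase, of 1.68 (SE 0.204; adjusted p = 0.0308). For Pdk1, the kinase that restrains pyruvate oxidation, the excess was 1.14 (SE 0.161; adjusted p = 0.0436). Plin2, a lipid droplet coat protein, was also called but was highest on the number 2 arrays. By contrast, the HIF partner Arnt differed by -0.09 (SE 0.105) and Vhl, which carries hydroxylated HIF to destruction, by 0.30 (SE 0.097), neither called. The excess of Epas1, which encodes the alternative alpha subunit HIF-2 alpha, was 0.48 (SE 0.156; adjusted p = 0.227).

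Among the other genes of glucose metabolism, the F test called Pgm1, phosphoglucomutase (number 3 excess 0.89, SE 0.116, adjusted p = 0.0358). Pkm, pyruvate kinase, had an excess of 0.71 (SE 0.140; adjusted p = 0.0964). Slc2a2, the GLUT2 transporter of mouse beta cells, ran the other way. It read 11.46, 10.27 and 9.63 with CMPF and 10.91, 10.30 and 10.07 with vehicle, a number 3 minus number 1 difference of -1.33 (SE 0.221; adjusted p = 0.0642). Slc16a1, the MCT1 transporter kept low in beta cells, was highest on the number 2 arrays, at 5.22, 7.03 and 6.56 with CMPF and 5.68, 7.15 and 5.89 with vehicle (adjusted p = 0.0559). Ldhb, the other main lactate dehydrogenase subunit, stayed between 6.79 and 6.88. The called genes Slc16a7, the MCT2 transporter, and Hkdc1, a hexokinase-like gene, were likewise highest on the number 2 arrays. CMPF was higher in all 3 pairs for 4 of the 33 (12.1%, against 11.8% of all genes) and lower in all 3 for 3 of the 33 (9.09%, against 11.1%), shares near those of all genes. The smallest p with the block belonged to Fbp2, a fructose bisphosphatase (0.24, SE with the block 0.0782), and Slc16a7 (0.29, SE with the block 0.0919). Their unadjusted block p were 0.0199 and 0.0201, with an adjusted p of 0.979 for each. In the hypoxia list the groups did not overlap for 1 of the 44 genes (2.27%), against 4.52% of all genes. It was Nos2, nitric oxide synthase, which was dim. Its limma difference was 0.23 (SE 0.101, unadjusted p = 0.0524, and with the block SE 0.0895, unadjusted p = 0.0384). With the block in limma, 4.55% of the list fell under an unadjusted 0.05, against 3.8% of all genes. These were Nos2 and Plin2 (unadjusted p = 0.0385), each with an adjusted p of 0.979. The smallest unadjusted p otherwise belonged to Galm, Pgk2 and Adpgk in the glucose list and to Stc2, Pdgfb and Kdm4c in the hypoxia list, with differences between -0.25 and 0.17. Gapdh had no probe set that names a single gene. The array's own 3' control for Gapdh read 12.98, 13.16 and 13.51 with CMPF and 13.16, 13.15 and 13.50 with vehicle.

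Promoter sequences are given because many of these genes are known HIF-1 targets, so that the letters of its core motif can be seen in them. The windows are the 250 bases before a listed start, from the RefSeq promoters of build GRCm38.p6, which held 43 windows for 29 of the 31 genes. The cores searched were ACGTG and GCGTG on both strands, so that CACGT and CACGC were counted too, and ACGTG and CACGT overlap in CACGTG. Of the 43 windows 34 (79.1%) held at least 1 core, and of all 32851 windows 38.6% did. ACGTG was held by 55.8% of the 43 and 16.6% of all, and GCGTG by 48.8% and 28.2%. The 43 windows had 61.3% G or C bases and all windows 53.2%, and the cores themselves are rich in both, so the shares are not matched for base composition. Among the 17 called genes with a window the share of windows was 79.2%. Windows of 1 gene can overlap, and a match describes the letters only. The windows of the 4 genes with the smallest F test p that hold a core are printed 5' to 3' on the gene's own strand, with the cores in capitals. They are Egln3 at chr12:54203875-54204124, Ankrd37 at chr8:45999851-46000100, Egln1 at chr8:124949255-124949504 and Pfkfb3 at chr2:11502091-11502340, all on the minus strand.
Egln3: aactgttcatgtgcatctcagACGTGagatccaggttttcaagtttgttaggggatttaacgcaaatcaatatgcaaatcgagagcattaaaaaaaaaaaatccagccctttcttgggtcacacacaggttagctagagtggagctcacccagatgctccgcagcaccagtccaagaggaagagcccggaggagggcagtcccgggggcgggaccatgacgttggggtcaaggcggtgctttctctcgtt
Ankrd37: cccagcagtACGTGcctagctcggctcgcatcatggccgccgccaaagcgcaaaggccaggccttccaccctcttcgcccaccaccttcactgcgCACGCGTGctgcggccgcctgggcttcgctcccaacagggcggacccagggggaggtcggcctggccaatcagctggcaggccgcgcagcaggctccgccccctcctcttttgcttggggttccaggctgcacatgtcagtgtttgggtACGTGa
Egln1: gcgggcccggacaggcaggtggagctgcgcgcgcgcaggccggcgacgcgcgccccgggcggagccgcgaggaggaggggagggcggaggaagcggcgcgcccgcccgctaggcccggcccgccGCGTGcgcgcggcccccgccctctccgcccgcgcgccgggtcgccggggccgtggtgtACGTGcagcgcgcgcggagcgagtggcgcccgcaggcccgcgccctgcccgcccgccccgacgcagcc
Pfkfb3: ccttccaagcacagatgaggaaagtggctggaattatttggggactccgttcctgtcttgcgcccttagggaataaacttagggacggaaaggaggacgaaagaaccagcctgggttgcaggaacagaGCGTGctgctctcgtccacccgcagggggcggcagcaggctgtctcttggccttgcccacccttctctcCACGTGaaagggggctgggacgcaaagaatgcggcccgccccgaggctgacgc
The Ankrd37 window held 4 cores, that of Pfkfb3 3, that of Egln1 2 and that of Egln3 1.

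Other measures also differed between the replicate numbers, and each array held RNA of whole islets, in which fewer cells of a type and less RNA per cell cannot be told apart. Beta cell markers (9 of 12 measured, 9 above the lower quartile of all genes) summed to between 62.9 and 69.8 with CMPF, in units of 1000 on the linear scale, and between 62.3 and 69.4 with vehicle. Bright genes weigh most in such sums. Of the 9 genes, 2 had number 1 highest and number 3 lowest in both groups (3.42% of all genes). Slc2a2, described above, was 1 of these 2. Slc2a2 and G6pc2 were also on the list of other genes of glucose metabolism. The F test of the number called 1 of the 9 (2.64% of all genes). Endothelial markers (12 of 12) summed to 1.30, 1.76 and 2.02 with CMPF and 1.40, 1.56 and 1.83 with vehicle. These sums were lowest on number 1 and highest on number 3, the order of most of the 31 genes. Singly, 7 of the 12 genes had that order in both groups (4.16% of all genes), and the F test called 2. Kdr and Flt1 were also on the list of other hypoxia genes. Stellate cell markers (12 of 12) summed to 8.54, 8.06 and 18.6 with CMPF and 11.0, 11.7 and 15.4 with vehicle, highest on number 3. Singly, 3 of the 12 had number 3 highest and number 1 lowest in both groups, and 0 were called. Acinar markers (10 of 12) summed to 76.8, 115.3 and 64.5 with CMPF and 65.1, 109.1 and 38.6 with vehicle. Like Car9, Hif1a and Slc16a1, they were highest on number 2. Singly, the F test called 6 of the 10 acinar genes (2.64% of all genes). Duct markers (7 of 8) ranged from 11.8 to 16.5 with CMPF and from 10.4 to 15.6 with vehicle, also highest on number 2. Of the 7 duct genes the F test called 4. Macrophage markers (12 of 12) ranged from 2.44 to 3.24 and from 2.41 to 3.50, and the F test called 1 of the 12. For the Actb control probe sets of the array, 3' minus 5' was 0.84, 0.74 and 0.76 with CMPF and 0.83, 0.70 and 0.81 with vehicle. For Gapdh it was 0.017, 0.017 and -0.016 with CMPF and -0.027, -0.089 and -0.045 with vehicle, without overlap. The part of these measures in the differences between numbers was not tested. RMA values have no 0, so no marker could be listed as absent.

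A further 30 probe sets were listed for 17 of the 31 genes, and number 3 exceeded number 1 on 27 of them, and on 21 of the 21 above the median gene level. For the treatment difference 19 of the 30 had the sign of the probe set used.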

How the data were processed

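RNA of 6 cultured islet samples was hybridised to an Affymetrix mouse 3' expression array. The log2 values deposited by the authors come from RMA, run in version 1.1 of Expression Console, as the submitters' processing notes record, with settings not given in the sources used here. RMA forces the arrays to 1 distribution, so differences in total signal are removed and dim genes are compressed. Array medians lay between 5.08 and 5.15. The values carry no detection call, and the number of arrays limits the precision.

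Of 45101 probe sets, 64 controls were left out, and 34945 named 1 gene, 932 several and 9160 none. For each of 18193 genes the brightest of its single-gene probe sets was kept. Treatment was tested by limma 3.58.1 in R 4.3.3 (lmFit, eBayes, two-sided), p-values being adjusted by Benjamini-Hochberg across the 18193 genes at a threshold of 0.05. The replicate number was tested with group and number in the model, as an F test with 2 degrees of freedom when all 3 numbers entered. Where both arrays of a number were left out, the test compared the 2 numbers kept. Differences are CMPF minus vehicle, or number 3 minus number 1. The scripts were tested on simulated data.

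Deviations from the group mean correlated at 0.488 to 0.638 between arrays of the same number, and at -0.555 to 0.0885 between those of different numbers. Arrays of a number were treated as pairs on this basis, since the labels give none. The labels do not say that samples came from separate animals, and p-values thus reflect only how these samples vary, which could be technical variation.

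The 31 genes and the 2 lists of other pathway genes were chosen with earlier results of these data known. All 31 are named. Values on every array were to be given for genes without overlap, the 8 with the largest difference and the 8 with the smallest F test p, 12 in all, and those of other genes were added after the values were seen. Of the other lists, genes fixed by name and up to 4 with the smallest p of each test are named. Alternatives were the block, 2 normalizations, the mean of probe sets, 2 filters on dim genes, array weights, a robust fit with trend, and leaving out arrays.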

Additional observations from a re-analysis of the deposited data

How the results depend on the processing

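For CMPF against vehicle limma called 0 genes under each of the 17 alternatives. With the replicate block the count was 0, the smallest adjusted p among the 31 genes was 0.979 and their median difference was -0.03, as without it. Signs were less stable: 18 of the 31 differences changed sign with array weights, where the medians were 0.085 over the 31 genes, 0.078 over the glycolysis genes and 0.11 over the hypoxia-induced genes, 5 with a second quantile normalization and 3 with the mean of probe sets, and between 4 and 21 when 1 array was left out, none of them past the threshold. Leaving out 1 array gave medians from -0.29 to 0.24 over the 31 genes, from -0.28 to 0.25 over the glycolysis genes and from -0.29 to 0.22 over the hypoxia-induced genes. Of the 31 genes, those higher in all 3 pairs were 1 with median centring (10.6% of all genes), 2 with a second quantile normalization (11.8%) and 1 with the mean of probe sets (12.8%), and 1 was lower with a second quantile normalization (11.7%). With only 2 pairs kept, 13 were higher without number 1 (23.8% of all genes), 1 without number 2 (20.9%) and 1 without number 3 (28.6%), and 16 were lower without number 3 (27.2%). The F test of the replicate number called 481 genes, 1149 with the filter at the median, 1931 with the robust fit, 0 without both number 2 arrays, 821 without both number 3 arrays and between 0 and 936 when 1 array was left out. Over the 31 genes it called 19 (2.64% of all genes), between 0 and 24 when 1 array was left out (0% to 5.14%), and 4, 0 and 9 without both arrays of number 1, 2 and 3 (2.33%, 0% and 4.51%). These fits hold 4 or 5 arrays, and a fit without both arrays of a number compares only the 2 numbers kept. The range between numbers exceeded the treatment difference for 31 genes with either normalization or the mean of probe sets, for the 29 tested with the filter at the median, and for 28, 30 and 27 without number 1, 2 and 3 (67.1%, 64.1% and 61.9% of all genes). Leaving out 1 array in the F test, leaving out both arrays of a number in limma's comparison with vehicle and its medians, and counting the 31 genes under each setting of the F test were added after seeing the data.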
